A study of Rattus norvegicus with 20 samples.

Results

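Tamoxifen and raloxifene, the non-steroidal selective estrogen receptor modulators (SERMs) of this rat study, were described here as a class. The class was taken from the array titles: 4 arrays titled tamoxifen and 3 titled raloxifene, which makes 7 of the 20 arrays of the study. Each compound was given at 3 mg/kg by daily gavage for 3 weeks. The controls were 4 arrays of rats that received the vehicle, a 20% solution of 2-hydroxypropyl-β-cyclodextrin. All rats were female Sprague Dawley rats that had been ovariectomised at 4 weeks of age, before regular cycles began, rested for 2 weeks, and were 9 weeks old at sampling. The comparisons therefore show what the compounds did where no ovary supplied estrogen, and they hold no intact animal. The other 9 arrays came from rats given ethinyl estradiol, estradiol benzoate or equilin at 0.15 mg/kg, with 3 arrays each. RNA came from the mesenteric arterial tree, dissected free of veins and fat, and each array held the RNA of 1 arterial sample.

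Estrogens act through the nuclear receptors ERα and ERβ, which bind DNA and recruit coactivators or corepressors, and through a membrane receptor. SERMs occupy the same ligand pocket but place the receptor's last helix differently, so that they act as agonists in some tissues and as antagonists in others. Tamoxifen is a triphenylethylene and raloxifene a benzothiophene. Small mesenteric arteries set much of the resistance to blood flow, and their wall is built of contractile smooth muscle, endothelium, fibroblasts and a matrix of collagen and elastin.

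Values are single-colour CodeLink intensities, shown as log2 of the intensity over the median of its array, so that 0 is the level of the middle probe. Of 35129 probes, 24562 passed the filters on missing and dim values, and 13324 of these carried 1 gene symbol, for 10225 genes. The smooth muscle markers of the labelled tissue were bright: Myh11, smooth muscle myosin, lay between 222 and 429 times the array median under vehicle. The Acta2 probe, for smooth muscle actin, was dim at 0.333 to 1.11. The summed level of the 6 smooth muscle markers was 669.5 to 860.5 under vehicle, 479.3 to 643.6 under tamoxifen and 597.7 to 821.1 under raloxifene. That of 5 pancreatic acinar markers, from tissue that borders the mesentery, was 9.40 to 98.2, 15.7 to 99.1 and 1.63 to 19.95. The part of these shifts in the results below was not tested, and in whole arteries fewer cells of a type and less RNA per cell cannot be told apart. Raloxifene array 3 stood apart: its mean correlation with the other arrays was 0.842 against 0.919 to 0.959, and results are given with and without it. Deposited array medians formed separate sets, 1 of vehicle array 1 with all 9 estrogen arrays and 1 of vehicle arrays 2 to 4 with all 7 SERM arrays. Which calls hold with this array set as a block is given below.

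The first question was which genes both compounds moved in the same way. The mean of both compounds, each weighted equally, differed from vehicle for 141 probes (47 higher, 94 lower), or 0.574% of those tested (limma, adjusted p under 0.05); 0.383% were lower, and 20.4% had an unadjusted p under 0.05. Under quantile normalisation the split was 72 higher and 66 lower. Among probes with 1 symbol 97 passed (34 higher, 63 lower), or 0.728%. A gene was counted as changed alike when the class mean passed, both compounds moved it in the same direction, and the smaller change was at least 0.5 times the larger. This held for 82 probes, 0.615% of those with 1 symbol, and for 80 genes: 51 fell and 29 rose. Quantile normalisation gave 34 lower and 43 higher genes. No probe with 1 symbol passed with the compounds moving in opposite directions. The class mean averages both compounds, so opposite changes cancel and could hardly pass, and this count says nothing of likeness. Both compounds were set against the same 4 vehicle arrays, so their likeness is partly that of a shared control.

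The number of genes called alike depended on single arrays. Without raloxifene array 3 there were 162 genes (124 lower, 38 higher). Of the 80 genes, 77 were among them, which is 96.2% of the 80 and 47.5% of the 162. The 3 that dropped out, Lypd1, Zfp667 and the glucagon gene Gcg, had adjusted p-values of 0.0532, 0.0501 and 0.0607 there. The count was 15 without vehicle array 1, 24 without vehicle array 2, 32 without vehicle array 3 and 440 without vehicle array 4. It was 31, 38, 264 and 38 without tamoxifen arrays 1, 2, 3 and 4, and 84 and 214 without raloxifene arrays 1 and 2. A block for the array set leaves vehicle array 1 without weight in this comparison; under it 15 genes were alike, all of them among the 80, or 18.8%: the 13 described next, Cyp2e1 and Xpnpep2. The other alike genes named here did not pass with the block, nor did Gaa, Clec9a, Nusap1 and Kif20a; with the block and without raloxifene array 3 there were 53 alike genes. Among the genes next to the threshold were Clec9a and Gcg, at an adjusted p of 0.0497, and, outside it, Il34 and Slc2a2 at 0.0510.

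**Figure D1:**
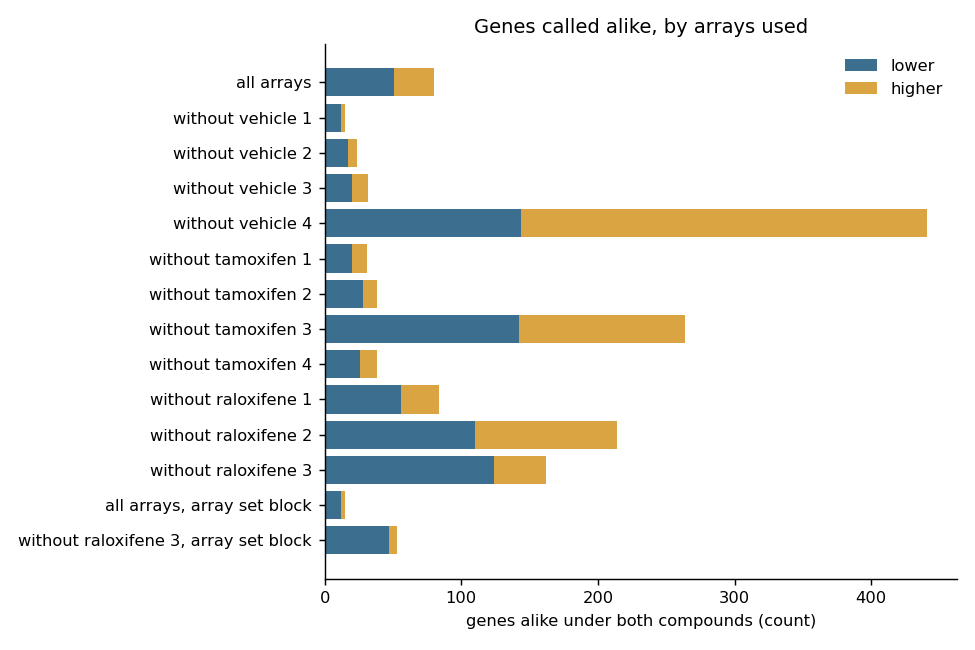
Number of genes called alike under both compounds (horizontal axis, count) by the arrays used, with genes that were lower and higher than vehicle stacked. The bar for all arrays reaches 80, that without vehicle array 4 reaches 440, and that without vehicle array 1 reaches 15.

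A set of 13 genes was called alike in all 11 fits that left out 1 vehicle or SERM array. The array set block called them too, but it is no separate check. It gives vehicle array 1 no weight here and so nearly repeats the fit without that array. These genes were singled out after the fits were seen. With the estrogen arrays left out of the fit, which then estimates the spread from fewer arrays, 6 genes were alike, and of the 13 these were Top2a, Col1a1, Cpz and Hsd11b2; the other 9 had adjusted p-values from 0.0661 (Cks2 and Cenpw) to 0.154 (Hsd17b2). Of them 11 fell: Mki67, Top2a, Cks2 and Cenpw, which serve cell division; Col1a1, C1qtnf3, C1qtnf5 and Cpz, which encode secreted proteins; Hsd11b2, Ciita and Adcy2. The remaining 2, Hsd17b2 and Arsk, rose. Class changes, on the probe of smallest p, were between 1.65-fold and 2.93-fold. In each of the 13 genes the 7 SERM arrays lay entirely on 1 side of the 4 vehicle arrays. The same was true of 69 of the 82 alike probes, which were chosen for their difference on these arrays; over all tested probes it was 3.65%, and over those with 1 symbol 4.01%.

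**Figure D2:**
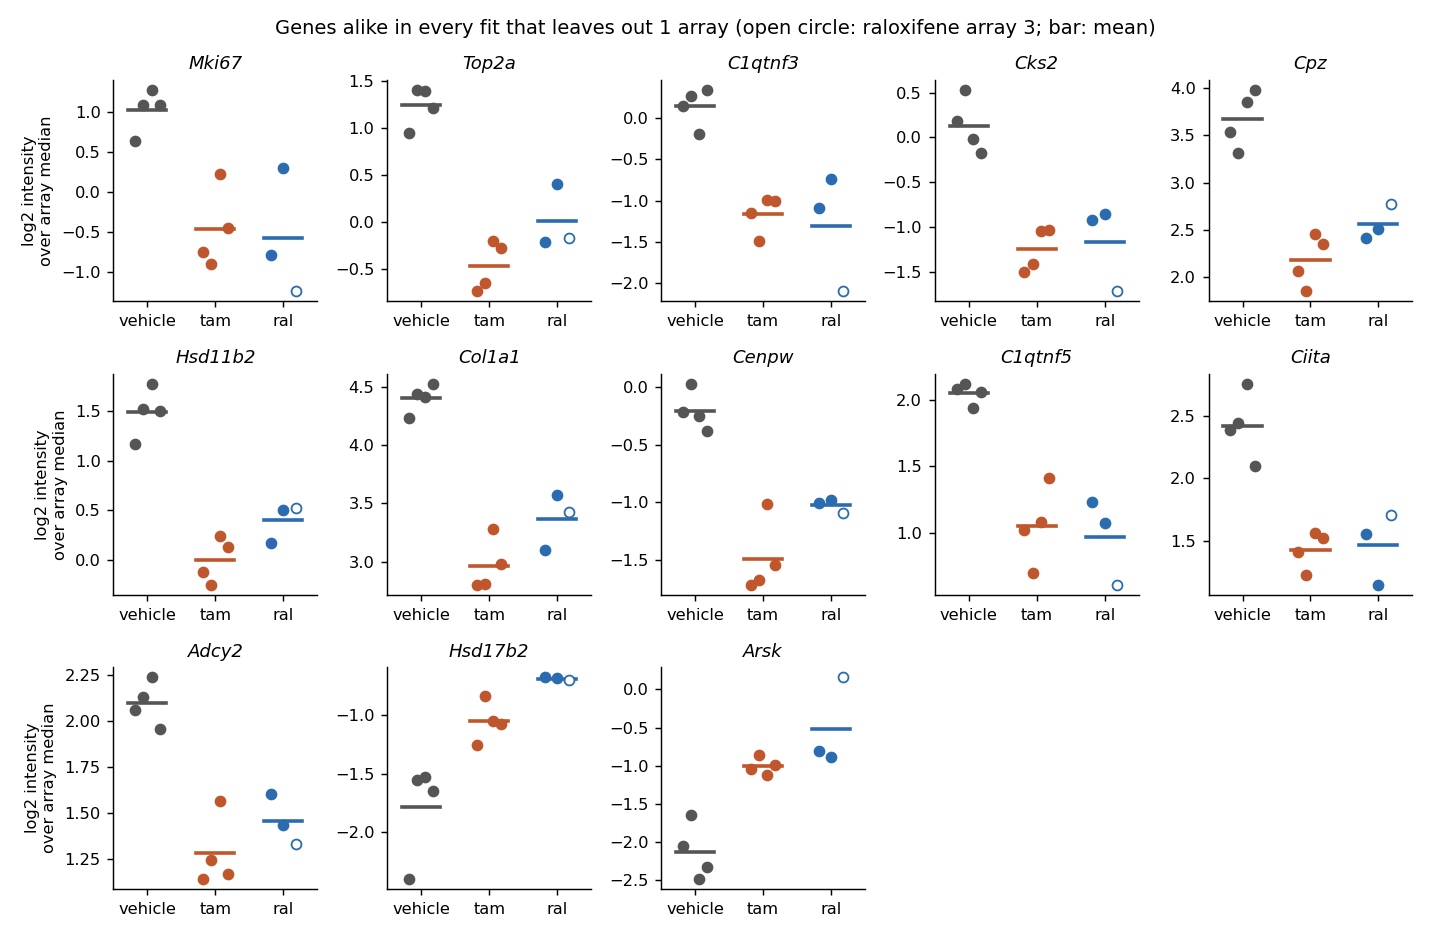
Level on each array (vertical axes, log2 intensity over the array median) of the 13 genes called alike whichever array was left out, for 4 vehicle, 4 tamoxifen and 3 raloxifene arrays. Bars are group means, and open circles mark raloxifene array 3. No SERM array reaches into the vehicle range, and raloxifene array 3 is the lowest array for Mki67, C1qtnf3, Cks2 and C1qtnf5.

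Among the gene lists, that of cell division had the largest share of falls. The lists were chosen with earlier results of these data known. Of 36 measured genes of a cell cycle list 6 fell and none rose, or 16.7%, against 0.540% lower among all 10191 genes counted the same way. With the array set as a block 3 of the 36 fell, against 13 of all 10191 genes. Of the 36, 21 had a negative change, against 6113 of all 10191 genes, so by sign the list as a whole did not lean lower. The list's median change was -0.20 (log2), against -0.09 over all genes; it was -0.26 under tamoxifen (-0.05 over all genes) and -0.11 under raloxifene (-0.10 over all genes). Mki67, the gene of a nuclear protein that marks dividing cells, stood at 0.65, 1.09, 1.28 and 1.09 on the vehicle arrays. It stood at -0.75, -0.90, 0.23 and -0.44 on the tamoxifen arrays and at -0.79, 0.31 and -1.24 on the raloxifene arrays. The highest SERM array, raloxifene array 2, was still below the lowest vehicle array. Mki67 fell by 1.55 ± 0.25 (SE), or 2.93-fold (adjusted p = 0.00826). Top2a, the topoisomerase that untangles chromosomes before division, read 0.94, 1.40, 1.39 and 1.21 under vehicle. Its tamoxifen arrays read -0.74, -0.65, -0.21 and -0.28 and its raloxifene arrays -0.22, 0.40 and -0.17. All 7 were below vehicle, and tamoxifen arrays 1 and 2 were lowest. The class change was -1.47 ± 0.17 (adjusted p = 0.000788). Cks2, a small subunit of the cyclin-dependent kinases, fell by 1.34 ± 0.18 (adjusted p = 0.00328), from a range of -0.18 to 0.53 under vehicle to -1.72 to -0.86 under the SERMs. The other members of the list that fell were Birc5 (survivin, -0.76 ± 0.17), Nusap1 (-0.87 ± 0.17) and Kif20a (-0.85 ± 0.18), which act on the mitotic spindle. Nusap1 and Kif20a did not meet the rule for likeness, since tamoxifen moved each more than raloxifene did.

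Genes outside that list but of the same machinery fell too. Cenpw, Cenpt and Cenpm, which encode proteins of the centromere, fell by 1.05 ± 0.14, 1.27 ± 0.25 and 0.66 ± 0.12. The other Cenpw probe changed by -0.04 and did not pass (adjusted p = 0.931). Tacc3, a spindle protein, fell by 1.09 ± 0.23. Its other probe changed by -0.34 and did not pass (adjusted p = 0.155). Cenpw, Cenpt, Cenpm and Tacc3 were named from the genes that had passed, so they add no independent count. Without raloxifene array 3, 8 of the 36 list members fell, against 122 of all 10191 genes. Among the 8 were Ccna2 (cyclin A2, -0.86 ± 0.14, adjusted p = 0.00767) and Ube2c (-0.96 ± 0.17, adjusted p = 0.0112). With all arrays these were -0.73 and -0.80 with adjusted p-values of 0.0532 and 0.0660. On raloxifene array 3 Ccna2 read 0.31, inside the vehicle range of -0.06 to 0.41, while on the same array Mki67 and Cks2 were at their lowest.

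The promoters of Top2a, Mki67 and Cks2 are shown because these members of the list fell the most. Each is the 250 bases before the start of the gene, from RefSeq's annotation of the rat assembly GRCr8, written 5′ to 3′ on the strand of the gene. Capitals mark CCAAT, the site of the factor NF-Y, and TTTGAA, the cell cycle homology region read by DREAM and MuvB complexes, on either strand; in the Mki67 promoter 1 TTTGAA overlaps 1 CCAAT of the other strand.
Top2a, chr10:84473094-84473343, minus strand: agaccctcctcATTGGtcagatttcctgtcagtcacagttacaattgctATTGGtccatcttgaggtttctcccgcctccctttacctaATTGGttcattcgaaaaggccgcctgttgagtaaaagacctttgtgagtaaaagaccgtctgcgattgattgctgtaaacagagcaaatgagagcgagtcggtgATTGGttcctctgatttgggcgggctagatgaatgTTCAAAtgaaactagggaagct
Mki67, chr1:199952594-199952843, minus strand: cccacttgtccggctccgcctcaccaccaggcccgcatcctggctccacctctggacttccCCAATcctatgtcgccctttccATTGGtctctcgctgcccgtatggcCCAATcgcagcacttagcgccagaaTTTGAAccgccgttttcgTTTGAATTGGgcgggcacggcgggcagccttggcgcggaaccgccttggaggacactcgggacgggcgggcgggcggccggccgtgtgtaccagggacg
Cks2, chr17:13727520-13727769, minus strand: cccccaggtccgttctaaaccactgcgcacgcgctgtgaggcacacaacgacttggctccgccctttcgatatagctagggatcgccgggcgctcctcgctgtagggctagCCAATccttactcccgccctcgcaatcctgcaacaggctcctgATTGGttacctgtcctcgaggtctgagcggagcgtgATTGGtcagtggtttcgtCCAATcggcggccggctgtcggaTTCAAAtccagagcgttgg
Each sequence held 4 CCAAT motifs, and TTTGAA occurred once in Top2a and Cks2 and 2 times in Mki67. Among 30 of the 36 list members with a promoter in the table, 26 held CCAAT (86.7%) and 13 held TTTGAA (43.3%). Of 8470 tested genes with a promoter these shares were 35.3% and 10.2%, and of all 27457 promoters 34.3% and 16.0%. The palindromic estrogen response element (GGTCA, then any 3 bases, then TGACC) was found in 6 of the 27457 windows (0.0219%) and in none of the 8470. Such matches describe letters only and say nothing of what was bound in these arteries. Of the 51 genes that fell alike only 32 had a promoter in the table, fewer than 80%, so no motif share is given for them. Of the 29 that rose alike 27 had a promoter, of which 12 held CCAAT (44.4%) and 3 held TTTGAA (11.1%). The list shares above are those of all members, most of which did not fall.

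Extracellular matrix genes were the second group. Of 51 measured members of a matrix list 4 fell and none rose, or 7.84%, against 0.540% lower among all 10191 genes. With the array set as a block 1 fell, against 13 of all 10191 genes. Of the 51, 42 had a negative change, against 6113 of all 10191 genes. The median was -0.36, against -0.09 over all genes. The 4 were the structural proteins collagen I (Col1a1), periostin (Postn), fibronectin (Fn1) and elastin (Eln). The brighter of the Col1a1 probes read 6.59, 6.47, 5.93 and 5.91 under vehicle, 4.47, 4.54, 4.71 and 4.63 under tamoxifen and 4.99, 4.73 and 4.08 under raloxifene. Every SERM array was at least as low as 4.99, and no vehicle array was below 5.91. Col1a1 fell by 1.63 ± 0.21, or 3.10-fold (adjusted p = 0.00164), and by 1.23 ± 0.16 on the other probe. Postn, bright at 6.49 to 7.05 under vehicle, lay at 5.16 to 6.03 under the SERMs (-1.09 ± 0.17, adjusted p = 0.00826). Elastin, at 7.76 to 8.53 under vehicle, lay at 7.30 to 7.61 under tamoxifen and 6.74 to 7.52 under raloxifene. Its groups did not overlap, and it fell by 0.82 ± 0.17 (adjusted p = 0.0343). Fn1 fell by 0.78 ± 0.15 (adjusted p = 0.0253). The other Fn1 probe changed by -0.37 and did not pass (adjusted p = 0.806).

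Secreted and matrix-processing genes outside the list were among the largest falls. Sfrp4, a secreted binder of Wnt ligands, was at 0.57 to 0.74 on the vehicle arrays. It was at -0.97, -1.29, -1.05 and -0.53 on the tamoxifen arrays and at -0.75, -0.17 and -2.20 on the raloxifene arrays. All 7 were below vehicle, with raloxifene array 3 lowest by a wide margin. Sfrp4 fell by 1.65 ± 0.28 (adjusted p = 0.0109), and by 1.36 without raloxifene array 3. Cpz, a secreted carboxypeptidase, fell by 1.29 ± 0.15 (adjusted p = 0.000805), from 3.31 to 3.98 under vehicle to 1.85 to 2.77. C1qtnf3 and C1qtnf5, secreted proteins with a globular C1q domain, fell by 1.38 ± 0.21 and 1.04 ± 0.15. Bmp1, the protease that trims procollagen, fell by 0.93 ± 0.19, and Creb3l1, a transcription factor of collagen-secreting cells, by 0.89 ± 0.15. Other Bmp1 probes changed by -0.38 and -0.12 and did not pass (adjusted p = 0.145 and 0.819). Serpinf1, a secreted inhibitor of vessel growth, fell by 0.54 ± 0.11, and Wnt5b by 0.99 ± 0.19. The other Wnt5b probe changed by -0.48 and did not pass (adjusted p = 0.358). Without raloxifene array 3, 8 of the 51 matrix genes fell, against 122 of all 10191 genes. Genes alike only without that array included Pcolce, the enhancer of procollagen cleavage (-0.73 ± 0.11, adjusted p = 0.00307), Sparc (-0.86 ± 0.16) and Col5a1 (-0.81 ± 0.19). Others were the crosslinking enzyme Loxl1 (-0.56 ± 0.13) and the matrix protease Mmp2 (-0.62 ± 0.11). Col5a1 and Loxl1 did not pass with the block added (adjusted p = 0.160 and 0.0692). With all arrays, other probes of Sparc (-0.19), Col5a1 (-0.24), Pcolce (-0.51) and Mmp2 (-0.17 and 0.34) did not pass. Pcolce read 1.96 on raloxifene array 3 against 4.71 and 4.86 on the other raloxifene arrays. Omd, the keratan sulfate proteoglycan osteomodulin, rose by 1.10 ± 0.18 without that array (adjusted p = 0.00663), on which it read 2.07 against 4.31 to 4.76 on the other SERM arrays.

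Of markers of fibroblasts and their progenitors 1 of 19 fell, Sfrp4 itself, against 55 of all 10191 genes. The median was -0.25, against -0.09 over all genes. Of contractile smooth muscle genes none of 23 passed in either direction, at a median of -0.12, while 1 was higher and 3 were lower at an unadjusted p under 0.05, against 801 and 1332 of all 10191 genes. That class median averages unlike compounds: it was -0.28 under tamoxifen and 0.06 under raloxifene. The list's mean level was 4.79 to 4.88 under vehicle, 4.23 to 4.77 under tamoxifen and 4.95 to 5.07 under raloxifene. These ranges did not overlap, and the compounds lay on opposite sides of vehicle, which was not tested. Myh11 changed by -0.14 ± 0.22 on its brighter probe, a sign that quantile normalisation turned, and by 0.67 on the other (adjusted p = 0.148). Acta2 changed by 0.58 ± 0.26 (adjusted p = 0.216).

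**Figure D3:**
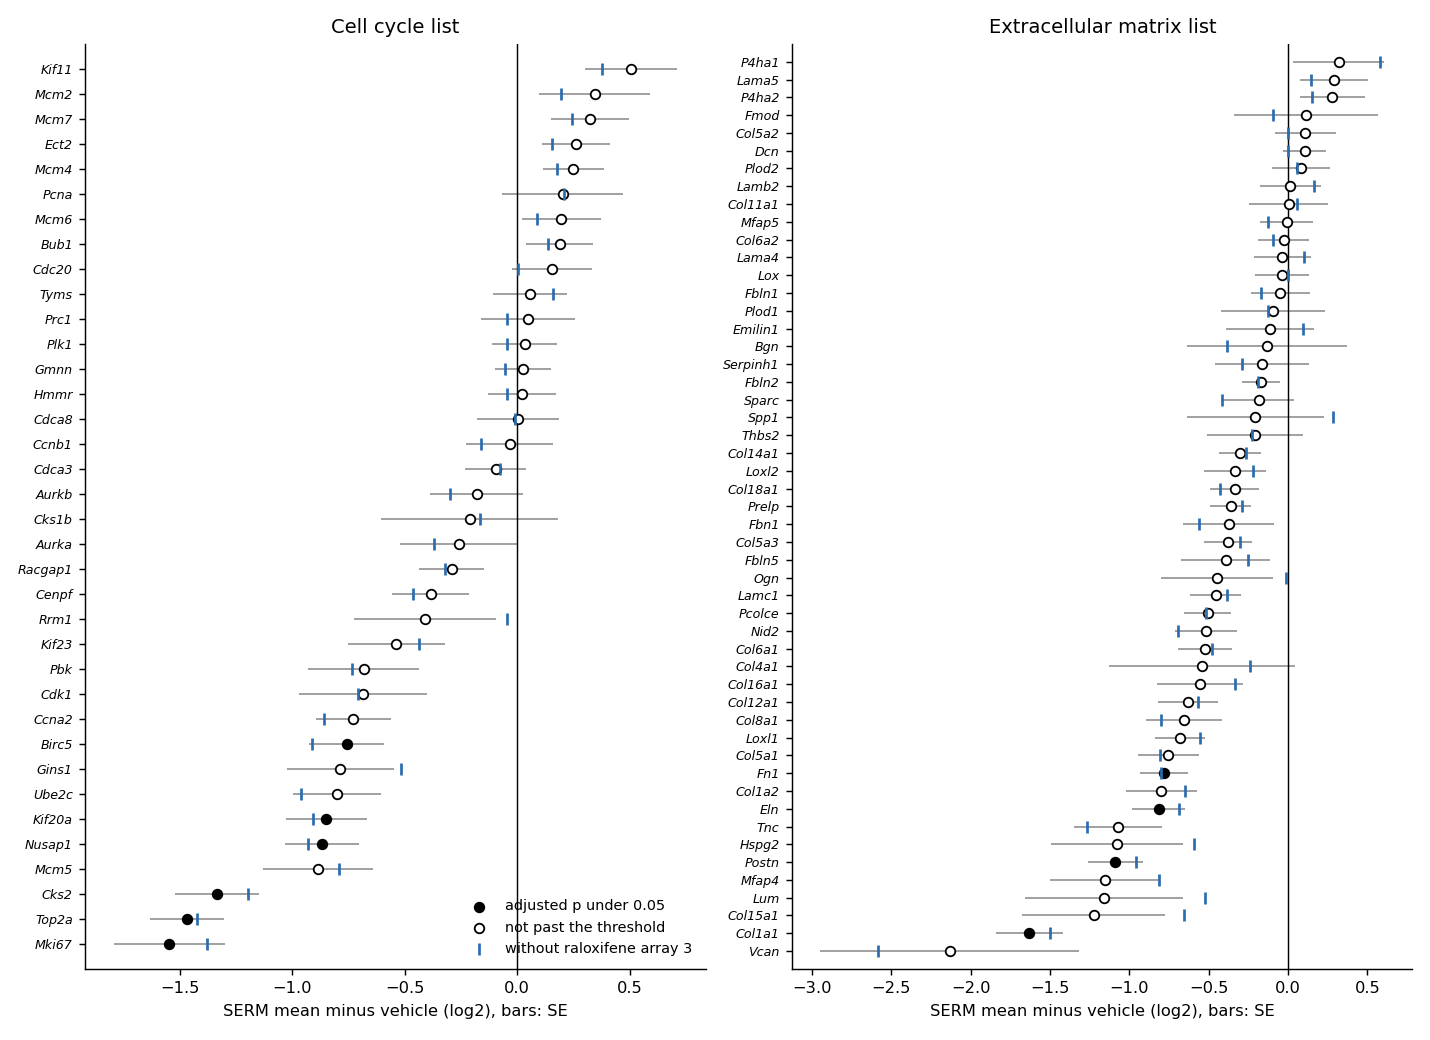
Change of each measured member of the cell cycle list (left, 36 genes) and the matrix list (right, 51 genes), as SERM mean minus vehicle on the log2 scale, with SE bars. Filled circles passed an adjusted p of 0.05, and blue ticks give the change without raloxifene array 3. The members that passed lie at the low end of each list.

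Enzymes of steroid and small-molecule metabolism moved in both directions. Hsd11b2 inactivates glucocorticoids and so shields the mineralocorticoid receptor. It stood between 1.16 and 1.77 on the vehicle arrays. Under tamoxifen it stood at -0.11, -0.25, 0.24 and 0.13 and under raloxifene at 0.17, 0.51 and 0.53. All 7 SERM arrays were below the lowest vehicle array, and Hsd11b2 fell by 1.29 ± 0.19, or 2.44-fold (adjusted p = 0.00530). Cyp7b1, which hydroxylates oxysterols and androgen precursors, fell by 0.93 ± 0.19 (adjusted p = 0.0289). Hsd17b2, which oxidises estradiol to the weaker estrone, rose by 0.91 ± 0.16 (adjusted p = 0.0128). It read -2.40, -1.55, -1.53 and -1.65 under vehicle, -1.25, -0.84, -1.05 and -1.07 under tamoxifen and -0.68, -0.68 and -0.70 under raloxifene. Vehicle array 1 was the lowest, and all SERM arrays were above all vehicle arrays.

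Cyp2e1, a microsomal oxidase of ethanol and small solvents, had the largest rise. Its levels were 0.09, 0.60, -0.95 and -0.47 under vehicle, 4.07, 4.65, 2.87 and 2.39 under tamoxifen and 2.32, 1.79 and 1.79 under raloxifene. Every SERM array exceeded the highest vehicle array by more than 1 log2 unit, and tamoxifen arrays 1 and 2 were highest. The class change was 2.91 ± 0.49, or 7.54-fold (adjusted p = 0.0109), and the gene's second probe rose by 2.61 ± 0.45. Cyp2e1 was the only 1 of 33 measured genes of a xenobiotic metabolism list to pass, while 25 of all 10191 genes rose. At an unadjusted p under 0.05, 9 of the 33 were higher and 3 lower, against 801 and 1332 of all 10191 genes. The list's median was 0.21, against -0.09 over all genes. The mean level of the 33 genes was 1.54 to 1.61 on the vehicle arrays, 1.87 to 1.94 on the tamoxifen arrays and 1.67 to 1.74 on the raloxifene arrays, so the 3 groups did not overlap. Tdo2, the enzyme that opens the ring of tryptophan, rose by 1.11 ± 0.21 (adjusted p = 0.0218), and Aldh1l2, a mitochondrial folate enzyme, fell by 1.05 ± 0.18 (adjusted p = 0.0109). Smpd3, a neutral sphingomyelinase, fell by 1.19 ± 0.21 (adjusted p = 0.0144).

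Among immune genes Ciita, the coactivator that switches on MHC class II, fell by 0.97 ± 0.14 (adjusted p = 0.00530), from 2.10 to 2.76 under vehicle to 1.15 to 1.71. A second, dim Ciita probe changed by 0.20 and did not pass (adjusted p = 0.685). The haemoglobin scavenger receptor Cd163, a macrophage marker, rose by 0.90 ± 0.19 (adjusted p = 0.0376). It was 0.81 to 1.59 under vehicle and 1.84 to 2.69 under the SERMs. Of 21 markers of macrophages and dendritic cells Cd163 alone rose and Clec9a alone fell (-0.76 ± 0.17, adjusted p = 0.0497). Over all 10191 genes 25 rose and 55 fell. The median of the macrophage and dendritic cell list was -0.42, against -0.09 over all genes. The summed level of 4 macrophage markers overlapped between groups, at 105.7 to 180.7 under vehicle, 116.7 to 144.3 under tamoxifen and 97.0 to 164.9 under raloxifene.

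Endothelial genes moved in single cases. Kdr, the main receptor of vascular endothelial growth factor on endothelium, rose by 0.70 ± 0.15 (adjusted p = 0.0464), from 1.86 to 2.74 under vehicle to 2.79 to 3.28. It was the only 1 of 17 endothelial markers to pass, while 25 of all 10191 genes rose. The median of the 17 was -0.13, against -0.09 over all genes. Vcam1, an adhesion molecule for leukocytes, rose by 0.83 ± 0.16 (adjusted p = 0.0229), although its other probe changed by 0.24 and did not pass (adjusted p = 0.451). Nos3, endothelial nitric oxide synthase, changed by -0.44 ± 0.21 (adjusted p = 0.253), and endothelin (Edn1) by 0.28 ± 0.26 (adjusted p = 0.556). Adcy2, an adenylyl cyclase that turns receptor signals into cyclic AMP, fell by 0.73 ± 0.12 (adjusted p = 0.0109). Apln, the gene of the vasodilator peptide apelin, was 1.48 to 1.78 under vehicle and 0.32 to 0.93 under the SERMs, yet its change of -1.03 ± 0.35 did not pass (adjusted p = 0.136).

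The other rises were spread over unrelated functions. Bcl6, a transcriptional repressor of immune and metabolic genes, read -0.24, 0.07, -0.40 and 0.80 under vehicle. It read 1.43, 1.52, 1.95 and 2.35 under tamoxifen and 1.26, 1.37 and 0.91 under raloxifene. All SERM arrays were above vehicle, with raloxifene array 3 close to vehicle array 4. Bcl6 rose by 1.44 ± 0.23 (adjusted p = 0.00883), and its second probe changed by 0.61 and did not pass (adjusted p = 0.0992). Arsk, a lysosomal sulfatase, rose by 1.37 ± 0.21 (adjusted p = 0.00624) on a dim probe; its brighter probe changed by 0.27 (adjusted p = 0.380). Bin2a rose by 1.35 and Zfp667, a zinc finger protein, by 1.27. Enzymes and regulators with rises between 0.94 and 1.10 were Pus7 and Trit1, which modify tRNA, the GTPase Drg1, the DNA repair enzyme Tdp2, the adaptor Crk, the acetyl-CoA carrier Slc33a1, the Golgi calcium pump Atp2c1, Pcyox1l and Mospd1. Srbd1 was the remaining gene among the 15 largest falls, by 1.07 ± 0.19. Of the 80 genes, 31 had further tested probes, 34 in all. Of these 25 had the same sign and 2, of Col1a1 and Cyp2e1, passed as well. Among those of opposite sign were probes of Slc33a1 (-0.45), Crk (-0.08) and Srbd1 (0.04).

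**Figure D4:**
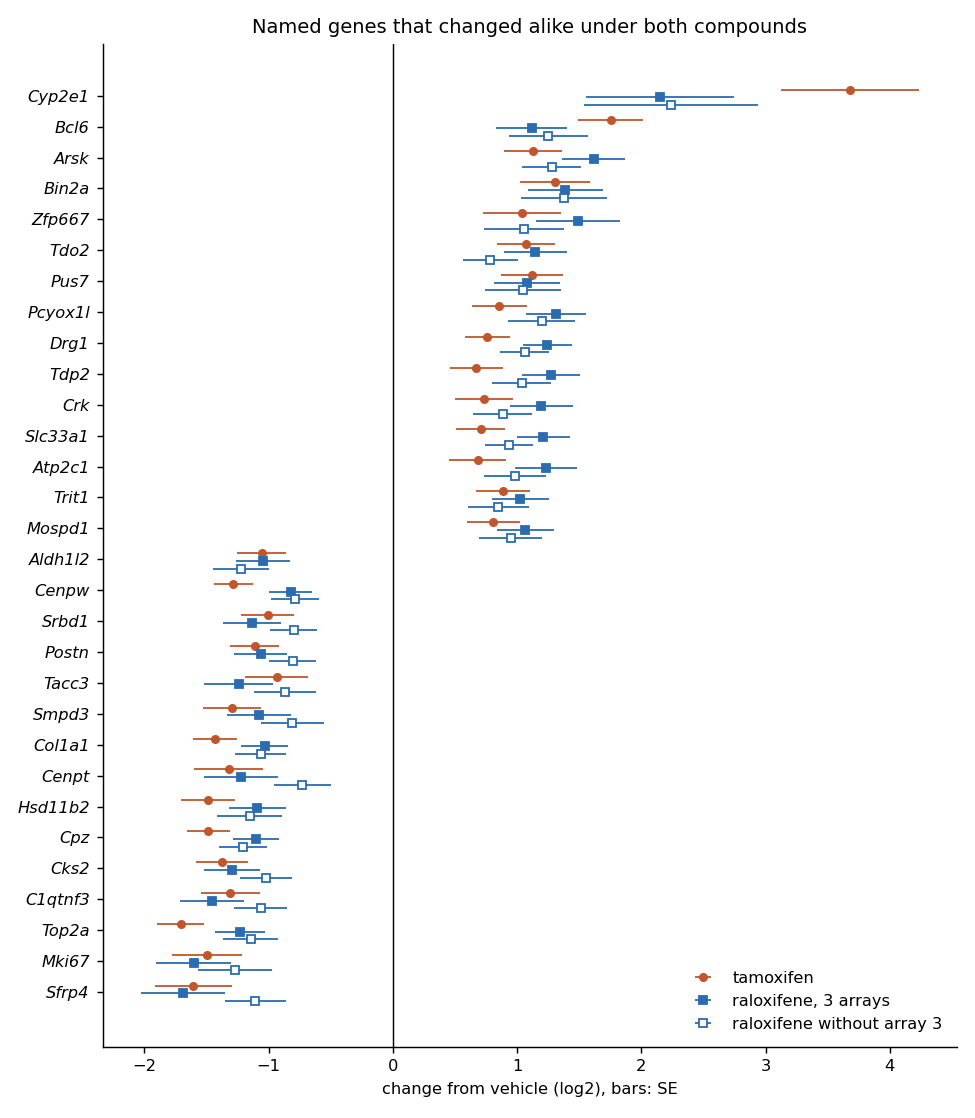
Change from vehicle (horizontal axis, log2, with SE bars) under tamoxifen, raloxifene and raloxifene without array 3, for the 15 highest and 15 lowest genes called alike. Filled circles are tamoxifen, filled squares raloxifene and open squares raloxifene without array 3. All 3 estimates lie on the same side of 0 for each gene, and Cyp2e1 shows the widest gap between compounds.

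The second question was where the compounds differed at the same dose and duration, and this pair was the only 1 compared. Set directly against each other over all 24562 probes, tamoxifen and raloxifene differed for 1 probe (0.00407%), that of Armc5, and for none without raloxifene array 3. At an unadjusted p under 0.05 there were 3291 probes (13.4%), and 842 (3.43%) without that array. Armc5, an armadillo repeat protein, read 2.90, 3.05, 3.34 and 3.59 under vehicle and 3.07, 2.71, 3.11 and 2.82 under tamoxifen. Under raloxifene it read 0.87, 1.46 and 0.26. All 3 raloxifene arrays were low, and tamoxifen overlapped with vehicle. Tamoxifen exceeded raloxifene by 2.07 (95% interval 1.45 to 2.69, limma, adjusted p = 0.0391). The difference was 1.77 without raloxifene array 3 (adjusted p = 0.444), and with any 1 SERM array left out other than raloxifene array 2 the call was lost, at differences of 1.77 to 2.14. The second Armc5 probe gave a class change of -0.44 (adjusted p = 0.180).

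For the 82 alike probes the 95% interval of the difference between compounds had a median half-width of 0.43, from 0.24 to 1.26, and it left out 0 for 16 of them, with no adjustment over probes. In 75 of 82 the whole interval lay within 1 log2 unit of no difference, which bounds a difference and does not show that the compounds act alike. The rule for likeness itself favours small differences in these probes. For Mki67 the difference was 0.11 (-0.52 to 0.74), for Sfrp4 0.08 (-0.63 to 0.79) and for Cks2 -0.08 (-0.55 to 0.39). Top2a fell by 1.71 under tamoxifen and by 1.23 under raloxifene, a difference of -0.47 (-0.90 to -0.05). Cyp2e1 rose under tamoxifen by 3.68 (adjusted p = 0.00502), while the raloxifene change was 2.15 (adjusted p = 0.0620), a difference of 1.53 (0.27 to 2.79). Taken singly against vehicle, tamoxifen moved 55 probes (0.224%) and raloxifene 502 (2.04%; 2.17% of those with 1 symbol). Without raloxifene array 3 these counts were 166 and 14. Both compounds passed on their own for 19 of the 80 genes, tamoxifen for 26, raloxifene for 66 and neither for 7.

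A further 15 probes with 1 symbol passed for the class without meeting the rule for likeness, 5 with the larger change under tamoxifen and 10 under raloxifene. Ntsr1, the receptor of the vasoactive peptide neurotensin, rose by 1.24 ± 0.16 for the class (adjusted p = 0.00164). It read 1.51, 1.38, 1.40 and 1.30 under tamoxifen, 0.25, 0.61 and 0.42 under raloxifene and -0.85 to 0.09 under vehicle. The 3 groups formed 3 steps that did not overlap, and tamoxifen exceeded raloxifene by 0.97 (0.56 to 1.38). The matrix protein tenascin C (Tnc) changed by -1.63 under tamoxifen and -0.62 under raloxifene, a difference of -1.01 (-1.51 to -0.51). Larger changes under raloxifene were those of the transcription factor Sox4 (-0.58 and -1.30) and of Gaa, the lysosomal glucosidase (-0.48 and -1.01). Of the 15 probes, 7 met the rule once raloxifene array 3 was left out, Sox4, Nusap1 and Kif20a among them.

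Some genes entered the class only when raloxifene array 3 was left out. Igf1, a growth factor made by vessel walls and liver, read 7.03, 7.40, 7.42 and 7.33 under vehicle and 5.78, 5.49, 6.35 and 6.02 under tamoxifen. It read 6.17, 5.94 and 3.07 under raloxifene. All SERM arrays were below vehicle, and raloxifene array 3 was far below the rest. The class change was -1.81 ± 0.44 with all arrays (adjusted p = 0.0631) and -1.31 ± 0.26 without raloxifene array 3 (adjusted p = 0.0236), where Igf1 fell. With the block added that p was 0.0515. Mest, an imprinted gene linked to fat cell size, fell there by 1.17 ± 0.25 and Il13ra2, a decoy receptor for interleukin, by 1.11 ± 0.20. Tyrobp, an adaptor of myeloid receptors, fell by 0.60 ± 0.12 (adjusted p = 0.0270) there, against 0.0578 with all arrays. With the block added Mest and Tyrobp did not pass (adjusted p = 0.127 and 0.0998).

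The receptors themselves gave no call. Esr1 (ERα) changed by -0.12 ± 0.17, Esr2 (ERβ) by 0.17 ± 0.12, and the membrane receptor Gper1 by 0.12 ± 0.22, with adjusted p-values of 0.724, 0.407 and 0.792. Pgr, the progesterone receptor and a classical estrogen target, was -0.67 to -0.36 under vehicle and -0.49 to -0.09 under the SERMs (0.26 ± 0.13, adjusted p = 0.278). Of 23 measured estrogen receptor and estrogen-responsive genes 1 passed, Hsd17b2, which rose. Over all 10191 genes 25 rose and 55 fell. The angiotensin receptor gene Agtr1a changed by 0.30 ± 0.22 (adjusted p = 0.436). Greb1, Ednra and Col3a1 were not analysed here.

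The last question was where the SERMs differed from the estrogens. The class mean differed from the mean of the 3 estrogens for 4585 probes (18.7%; 3229 higher, 1356 lower under the SERMs), but for 19 (0.0774%) with the array set as a block, and array set and class cannot be told apart. Of 336 tested probes that are regularly spaced and have no gene name, 335 were among the 4585, and none was called with the block. The split was 3122 higher and 2001 lower under quantile normalisation, and 2621 and 1744 with no centring. Of the 80 alike genes 41 passed in that comparison, 21 of the 29 that rose and 20 of the 51 that fell, against 18.1% of probes with 1 symbol, and none with the block. Both comparisons used the same 7 SERM arrays, so the shared direction is not independent. Some of the genes that fell the most are given beside their estrogen values, which use the same vehicle arrays: the estrogen mean differed from vehicle by -1.33 for Top2a, -1.17 for Mki67, -1.38 for Cpz and -1.45 for Sfrp4, and for none of these did SERM minus estrogen pass (adjusted p = 0.521, 0.200, 0.645 and 0.601), which does not show that the classes act alike there. Scd and Me1, enzymes of fat synthesis from the fixed genes, passed in this comparison. Scd, the stearoyl-CoA desaturase, was 3.88, 5.36, 5.98 and 5.43 under vehicle and 4.33 to 5.15 under the SERMs, a change of -0.49 ± 0.27 (adjusted p = 0.311). The estrogen mean exceeded vehicle by 1.41 (adjusted p = 0.00494), and the SERMs were lower than the estrogens by 1.90 (adjusted p = 4.23e-05), or by 3.60 with the block (adjusted p = 0.000120). With the block the link between the sets rests on vehicle array 1, the lowest vehicle array for Scd. For Me1, malic enzyme, the class change was -0.25 ± 0.20 (adjusted p = 0.473), the estrogen change 1.25 (adjusted p = 0.00349) and SERM minus estrogen -1.49 (adjusted p = 2.62e-05; 0.125 with the block).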

How the data were processed

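The authors deposited 1 table of CodeLink Whole Rat Genome array intensities for 20 arrays, linear values scaled to a median near 1 with some below 0. Per the series' design text, scanning used GenePix Pro 5.0, and the authors' analysis used CodeLink Expression Analysis and Acuity 3.1. The design text also names GeneSpring 7.1, and how background was treated is not stated there. Gene names came from the platform annotation (16865 probes with 1 symbol, 165 with several, 18099 with none; 16836 matched RefSeq by gene ID, 1 symbol updated).

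Values below 0 were set to 0, log2(intensity + 0.103) was taken (0.103 is 0.1 of the median intensity), and each array's median was set to 0. The dimmest 30% of probes, by mean, and probes lacking over 1 value in any group were not tested. A model of all 6 groups was fitted with limma 3.58.1 (R 4.3.3; eBayes with a trend, Benjamini-Hochberg over 24562 probes). Changes are on the log2(intensity + offset) scale, which understates dim genes. With 20 arrays, precision is limited by their number; p-values measure spread between arrays, each from an individual rat.

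Genes named were the 15 highest and 15 lowest alike genes (smallest p per gene), compound differences, the 3 list members of smallest p, and 22 fixed genes; lists used each gene's brightest complete probe. Not every gene so chosen is printed, and further alike genes, those called but not alike, and those alike only without raloxifene array 3 were named after their values were seen. Members, lists and these rules were chosen with earlier results of these data known. On simulated data of 24562 probes the SERM comparison recovered 1, 28, 42 and 45 of 50 probes changed by 0.5, 1, 1.5 and 2, with 3 false calls among 24362. The simulated noise was normal and independent between probes and arrays, with no outlying array and no array set. The false calls there therefore do not bound those in the real data. Alternatives were scaling, offset, filters, variance trend, array weights, groups in the fit, blocks, arrays left out and the unit of testing.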

Additional observations from a re-analysis of the deposited data

Results flagged for a closer look

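Armc5 was the 1 gene for which the test of the difference between the compounds passed with all arrays: tamoxifen minus raloxifene was 2.07 (95% interval 1.45 to 2.69). The call was lost with the replicate block (adjusted p = 0.0650), the array set block (0.0574) and without raloxifene array 3 (0.444).

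In 160 groups of 4 arrays (80 named genes, vehicle and tamoxifen), 6 held an array far from the other 3, or 3.75%, where chance gives about 1 in 20. Tdp2 read 0.20 on tamoxifen array 3, against 1.12 to 1.28 on the others. Postn read 6.00 on that array, against 5.45 to 5.54. Slc33a1 read 2.36 on tamoxifen array 2, against 2.17 to 2.20. Tnc read -0.71 on tamoxifen array 4, against -0.17 to -0.12. Hsd17b2 read -2.40 on vehicle array 1, against -1.65 to -1.53. Bmp1 read 1.68 on vehicle array 4, against 2.25 to 2.33.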

How the results depend on the processing

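Counts are given in the order class against vehicle (141), genes alike (80), tamoxifen against raloxifene (1) and class against estrogens (4585). Array weights gave 4682, 2086, 1400 and 10176. With only the compared groups in the fit the first 3 were 12, 6 and 0. The array set block gave 33, 15, 0 and 19; leaving out raloxifene array 3 gave 262, 162 and 0; both together gave 84, 53, 0 and 43. Vehicle arrays 2 to 4 as the only controls gave 33, 15 and 0. Testing only probes with 1 symbol gave 2378 for the estrogen comparison, and the mean over the probes of a gene gave 133 genes alike, 0 and 1808. Requiring each compound to pass gave 19 genes, the larger of both p-values 0, and a smaller change of at least 0.75 of the larger 42. Leaving out 1 array at a time gave 33 to 914, 15 to 440, 0 to 224 and 3844 to 5171; the 224 were without raloxifene array 2. The other alternatives (scaling, offsets, filters, trend, regularly spaced unnamed probes, equal weight per array) kept each count within 1.5 times. The causes were not tested.

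Whether replicate numbers pair the samples was not settled. Correlations of same-numbered deviations ran from -0.20 to 0.30, and those of differently numbered arrays were not computed. With the replicate number as a block the counts were 148, 76, 1 and 3751; the 1 call between compounds was Olr59, lower under tamoxifen, and Armc5 was lost (2.02, adjusted p = 0.0650).

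Among 80 named genes no direction turned except for small changes: Myh11 (main -0.14) was 0.0325 under quantile normalisation and 0.268 as a mean over its probes, and Edn1 was -0.0933 with array weights. With 1 array left out Myh11 ran from -0.3334 (raloxifene 3) to 0.0115 (raloxifene 2) and Gper1 from -0.0085 (vehicle 2) to 0.2776 (vehicle 3). At this number of arrays changes of 0.5 were rarely called in the simulation.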
